A study of Mus musculus with 2 samples.

Results

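The 8 genes described here are 7 mouse CC chemokines, Ccl2, Ccl7, Ccl12, Ccl8, Ccl6, Ccl9 and Ccl24, and the receptor Ccr2. They were picked by gene symbol from the 31253 genes counted in each library, and all 8 had UMIs in both. A UMI (unique molecular identifier) marks 1 captured transcript molecule. The tumours were grown from MB49, a bladder cancer line of the mouse, and their cells were sorted for CD45, the leukocyte surface protein encoded by Ptprc. The hosts were chimeric female mice that had been lethally irradiated and given male marrow, which was Lcn2-KO for one library and WT for the other. Marrow-derived cells thus carried the genotype of the label, while the label does not give that of tumour cells or of host cells that outlived the irradiation. There was 1 single-cell library per label, made on the BD Rhapsody microwell system, and how many mice went into each was not given.

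CC chemokines are small secreted proteins that draw leukocytes along a gradient through G protein-coupled receptors. Ccr2 is the receptor that lets monocytes leave the marrow and enter inflamed tissue and tumours. In mice Ccl2, Ccl7 and Ccl12 are ligands of Ccr2, Ccl8 acts on Ccr8, Ccl6 and Ccl9 act on Ccr1, and Ccl24, also called eotaxin 2, acts on Ccr3 of eosinophils. Macrophages are well known sources of these ligands, and stromal and tumour cells also secrete Ccl2 and Ccl7.

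Of the 7 ligand genes, 6 lie on chromosome 11 of the mouse genome (GRCm38, GENCODE M21). Ccl2 (82035571 to 82037453), Ccl7 (82045712 to 82047525), Ccl12 (82101845 to 82103400) and Ccl8 (82115185 to 82116799) follow each other on the plus strand with 3 exons each. Ccl9 (83572919 to 83578636) and Ccl6 (83587882 to 83593087) lie on the minus strand of the same chromosome, 9245 bases apart, with up to 4 exons in an annotated transcript. Ccl24 is on chromosome 5 (135569937 to 135573049, minus strand) and Ccr2 on chromosome 9 (124101950 to 124113557, plus strand). No stretch of 50 bases in the last 400 bases of each gene's longest transcript occurred in a transcript of another gene. Gm17268 overlaps Ccl2 on the other strand and had 3 UMIs in the Lcn2-ko-labelled library and 5 in the wt library, against 23788 and 18722 UMIs of Ccl2.

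Promoter windows of 250 bases before to 50 after the RefSeq gene start (GRCm38.p6) were matched for 5 of the 8 genes: Ccl12, Ccl8, Ccl9, Ccl6 and Ccr2. Ccl12 and Ccl8 are shown because they are neighbours whose UMIs sat mostly in the same cell class, and Ccl9 because its UMIs were spread over more classes. Capitals mark TATAAAA, the TATA box, and GAGGAA, the core bound by the myeloid factor PU.1, on either strand.
Ccl12, chr11:82101595-82101894, plus strand: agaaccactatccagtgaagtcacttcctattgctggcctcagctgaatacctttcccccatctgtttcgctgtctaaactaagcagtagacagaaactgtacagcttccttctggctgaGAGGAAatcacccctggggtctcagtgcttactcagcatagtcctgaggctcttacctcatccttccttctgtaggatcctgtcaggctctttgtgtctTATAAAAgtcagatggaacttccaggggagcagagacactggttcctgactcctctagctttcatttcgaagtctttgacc
Ccl8, chr11:82114935-82115234, plus strand: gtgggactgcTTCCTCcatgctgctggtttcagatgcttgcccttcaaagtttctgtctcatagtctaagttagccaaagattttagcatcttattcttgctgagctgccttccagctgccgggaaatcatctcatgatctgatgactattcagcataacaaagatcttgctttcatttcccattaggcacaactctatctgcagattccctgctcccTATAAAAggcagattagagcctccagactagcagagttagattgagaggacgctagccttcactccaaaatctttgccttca
Ccl9, chr11:83578587-83578886, minus strand: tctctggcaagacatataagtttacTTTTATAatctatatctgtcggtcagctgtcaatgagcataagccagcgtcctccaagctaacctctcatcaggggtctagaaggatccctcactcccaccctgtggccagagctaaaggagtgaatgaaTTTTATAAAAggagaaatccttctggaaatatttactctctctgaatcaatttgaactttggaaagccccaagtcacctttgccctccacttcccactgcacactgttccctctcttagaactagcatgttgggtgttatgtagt
TATAAAA began 31 bases before the start of Ccl12 and 32 before that of Ccl8, and 5.48% of the 32851 promoters in the table held it. Ccl9 had 3 matches, of which the one 95 bases and the one 92 bases before the start overlap on opposite strands. GAGGAA was found once each in Ccl12, 130 bases before the start, and in Ccl8, 240 bases before it, and in 28.3% of all promoters. Ccl9 also held TGANTCA, the AP-1 site, 53 bases before its start (7.81% of promoters) and 1 match to the NF-kB site by name (8.46%). TTGCNNAA (10.8%), a site of C/EBP, and the STAT6 site (6.95%) were in none of the 5 windows. Each motif was sought on both strands, and a match is a stretch of letters only.

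The Lcn2-ko-labelled library had 7788 barcodes with 40959725 UMIs, and the wt library 7974 with 42069099, with medians of 3570 and 3574.5 UMIs per barcode. After filters 7209 and 7397 cells remained, and 4 barcodes occurred in both libraries. Cells were assigned to classes one by one from marker genes that include none of the 8 genes, which left 12.6% and 13.1% unassigned. Lcn2, a neutrophil granule gene, had 76 UMIs in neutrophils of the Lcn2-ko-labelled library and 203 UMIs in those of the wt library (189 and 242 CPM), a log2 ratio of -0.35 with an interval of -0.75 to 0.03. The deleted part of Lcn2 was not given, so these UMIs do not check the label, and the library is called by its label throughout. CPM is a gene's UMI count over the cells of a class, scaled to a class total of 1000000 UMIs. With 1 library per label no test was possible. All intervals are exact, at 95%, and cover counting error only, so differences between mice or preparations are not in them. Intervals of CPM and of ratios count each UMI as independent, so the spread between cells of a class is not in them either.

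Read by where the UMIs sat, 3 of the 7 ligands had most of their UMIs in monocyte-macrophages of both libraries. These were Ccl12, at 77.1% and 76.7% of the kept cells' UMIs, Ccl8, at 72.5% and 75.0%, and Ccl24, at 63.5% and 52.3%, each given for the Lcn2-ko-labelled library first and the wt library second. Ccl2 and Ccl7 sat mainly in cells with markers of non-immune tumour cells and no Ptprc UMI, at 72.4% and 69.8% for Ccl2 and 63.5% and 57.3% for Ccl7. Ccl9 was shared between such cells (45.9% and 51.8%) and monocyte-macrophages (26.6% and 23.3%). Ccl6 was shared between monocyte-macrophages (51.9% and 37.1%) and neutrophils (13.4% and 31.4%), and Ccr2 was mostly in T cells (54.4% and 58.7%). With cells named by cluster instead, monocyte-macrophages held 70.6% and 56.4% of Ccl6 UMIs, so that Ccl6 joined these ligands. These shares follow the size and depth of a class as well as the level in it. The label of macrophage chemokines thus holds by share for Ccl12, Ccl8 and Ccl24 and not for Ccl2 and Ccl7, while Ccl9 had its largest share in non-immune cells and its highest CPM in monocyte-macrophages, at 379 and 373 CPM.

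**Figure D1:**
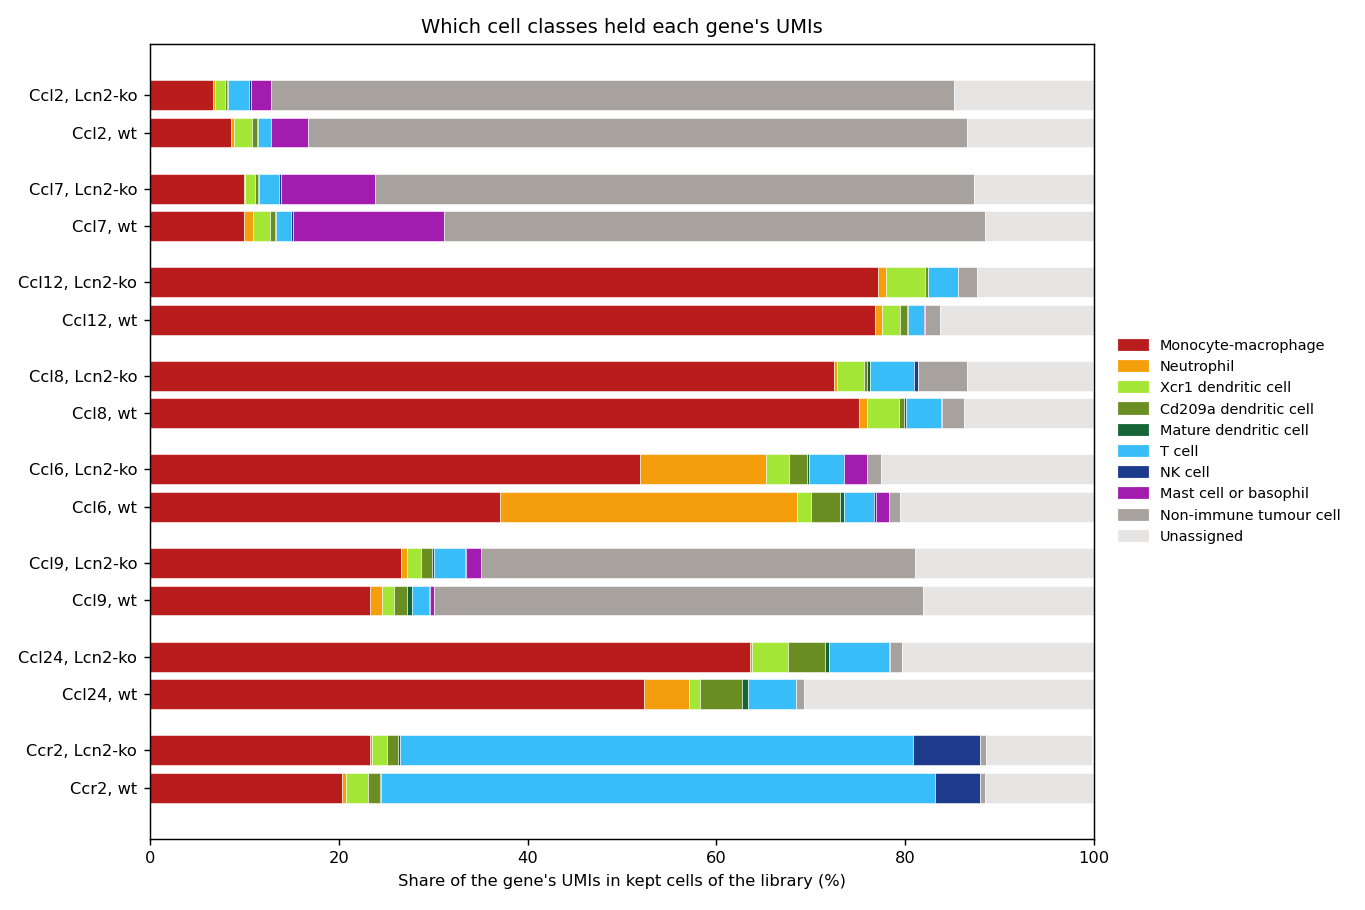
Stacked bars of the share of each gene's UMIs (%) held by each cell class among kept cells, the Lcn2-ko-labelled library above the wt library for each gene. The 2 classes with under 50 cells, B cells and plasmacytoid dendritic cells, are not drawn. Monocyte-macrophages (dark red) fill most of the bars of Ccl12 and Ccl8, non-immune cells (grey) those of Ccl2 and Ccl7, and T cells (light blue) that of Ccr2.

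Ccl2, the main ligand of Ccr2, was highest in mast cells or basophils, at 1652 CPM in the Lcn2-ko-labelled library (95% interval 1509 to 1804) and 1765 CPM in the wt library (1637 to 1900.4). Non-immune tumour cells followed, at 1266 CPM in the Lcn2-ko-labelled library (95% interval 1246 to 1285) and 872 CPM in the wt library (857 to 888), and monocyte-macrophages came next, at 369.6 CPM in the Lcn2-ko-labelled library (95% interval 351 to 388) and 437 CPM in the wt library (415 to 459). The intervals of these 3 classes did not overlap in either library. The remaining classes lay between 16.5 CPM, in NK cells of the wt library, and 103 CPM, in Xcr1 dendritic cells of the Lcn2-ko-labelled library, and most neighbours among them overlapped. T cells, which are not known as a source of Ccl2, had a Ccl2 UMI in 12.4% and 7.78% of cells at median depths of 2786 and 2677 UMIs, and in 3.55% and 2.01% after each cell was thinned to 800 UMIs. In non-immune cells those shares were 77.8% and 67.7% at median depths of 8608 and 8348 UMIs and 42.7% and 32.1% thinned.

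Ccl7, a close relative of Ccl2 that also binds Ccr2, showed the same order with a steeper top. Mast cells or basophils had 4355 CPM in the Lcn2-ko-labelled library (95% interval 4123 to 4598) and 5005 CPM in the wt library (4788 to 5230.3). These classes of 56 and 71 cells, 0.777% and 0.96% of kept cells, held 9.93% and 16.1% of all Ccl7 UMIs. Non-immune cells had 635 CPM in the Lcn2-ko-labelled library (95% interval 621 to 648) and 492 CPM in the wt library (481 to 504), and monocyte-macrophages 312 CPM in the Lcn2-ko-labelled library (95% interval 295 to 329) and 346 CPM in the wt library (327 to 366). Ccl7 was present in 69.6% and 71.8% of mast cells or basophils, against 7.46% and 6.50% of T cells. The mast cell or basophil class was split by Mcpt8, a protease gene of basophils. The 44 and 63 cells without Mcpt8 had 4612 and 5517 CPM of Ccl7 and 1848 and 1912 CPM of Ccl2, in the Lcn2-ko-labelled library and the wt library in that order. The 12 and 8 cells with Mcpt8 held 165 UMIs and 0 UMIs of Ccl7, and 104 of the 165 came from 1 cell.

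The sort was for CD45, yet non-immune cells made up 19.3% of kept cells in the Lcn2-ko-labelled library and 20.9% in the wt library, and each had no Ptprc UMI, which the rule that chose them required. Col1a1 or Col3a1, collagen genes of mesenchymal cells, was detected in 1372 of 1392 and 1523 of 1549 of them. Of these classes 96 and 79 cells had at least 3 fibroblast markers, with Ccl2 at 1573 and 875 CPM, and cells below that number had 1238 and 872 CPM. Tumour cells of MB49 and host fibroblasts could not be told apart by these markers. Cells with Mki67 or Top2a, genes of dividing cells, had Ccl2 at 1275 and 858 CPM, close to the 1251 and 896 CPM of cells with neither. Ccl9 differed along that split, at 265 and 242 CPM with these genes and 120.3 and 140.0 CPM without them.

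Ccl12, a mouse ligand of Ccr2 close to Ccl2 in sequence and position, was at 255 CPM in the Lcn2-ko-labelled library (95% interval 239.9 to 271) and 402 CPM in the wt library (382 to 424) in monocyte-macrophages. None of the other 8 classes with at least 50 cells exceeded 27.4 CPM, the value of neutrophils in the Lcn2-ko-labelled library, and non-immune cells had 2.13 and 2.01 CPM. Ccl12 and Ccl2, both Ccr2 ligands, thus had most of their UMIs in different classes. Ccl8, the Ccr8 ligand, was at 401 CPM in the Lcn2-ko-labelled library (95% interval 382 to 421) and 433 CPM in the wt library (412 to 455) in monocyte-macrophages and at most 27.2 CPM elsewhere, in Xcr1 dendritic cells of the Lcn2-ko-labelled library. After thinning, Ccl8 was in 14.2% and 14.0% of monocyte-macrophages and 0.817% and 0.452% of T cells. Both genes were among the 10 genes with the highest fold of this class over the rest, beside Msr1, Lyz2 and C1qc.

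Ccl24 was at 386 CPM in the Lcn2-ko-labelled library (95% interval 367 to 405) and 193 CPM in the wt library (179 to 208) in monocyte-macrophages, where the intervals of the libraries lay apart. Cd209a dendritic cells came next in the Lcn2-ko-labelled library, at 109 CPM from 100 UMIs, and neutrophils in the wt library, at 75.1 CPM from 63 UMIs, of which 30 were in 1 cell. Of the wt library's Ccl24 UMIs, 30.7% were in unassigned cells, against 20.3% in the Lcn2-ko-labelled library. With cells named by cluster instead, monocyte-macrophages held 92.0% and 93.4% of Ccl24 UMIs.

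Ccl6 was highest in neutrophils, at 3063 CPM in the Lcn2-ko-labelled library (95% interval 2894 to 3239) and 3502 CPM in the wt library (3376 to 3631), followed by monocyte-macrophages, at 1137 CPM in the Lcn2-ko-labelled library (95% interval 1105 to 1170.0) and 973 CPM in the wt library (940.5 to 1006). It was detected in 72.4% and 77.1% of neutrophils although their median depth was 1223 and 1395.5 UMIs, the lowest of the 9 classes compared. Neutrophils numbered 290 in the Lcn2-ko-labelled library and 516 in the wt library, and they held 13.4% and 31.4% of Ccl6 UMIs. The part of cell number in this difference was not tested. Cells with Mcpt8 in the mast cell or basophil class also had Ccl6, at 3144 and 3064 CPM, and the others had 222 and 69.3 CPM. Ccl9, the neighbour of Ccl6 and likewise a Ccr1 ligand, was low in neutrophils, at 107 CPM in the Lcn2-ko-labelled library (95% interval 77.5 to 144) and 83.4 CPM in the wt library (65.0 to 105). It was at 379 and 373 CPM in monocyte-macrophages and 209 and 204 CPM in non-immune cells, in the Lcn2-ko-labelled library and the wt library. Mast cells or basophils had 336 and 60.3 CPM of Ccl9 in the same order. Their 12 and 8 cells with Mcpt8 had 1391 and 488 CPM, from 73 and 18 UMIs. Outside monocyte-macrophages most Ccl9 UMIs were in non-immune cells, where Ccl6 was at 10.8 and 7.21 CPM.

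**Figure D2:**
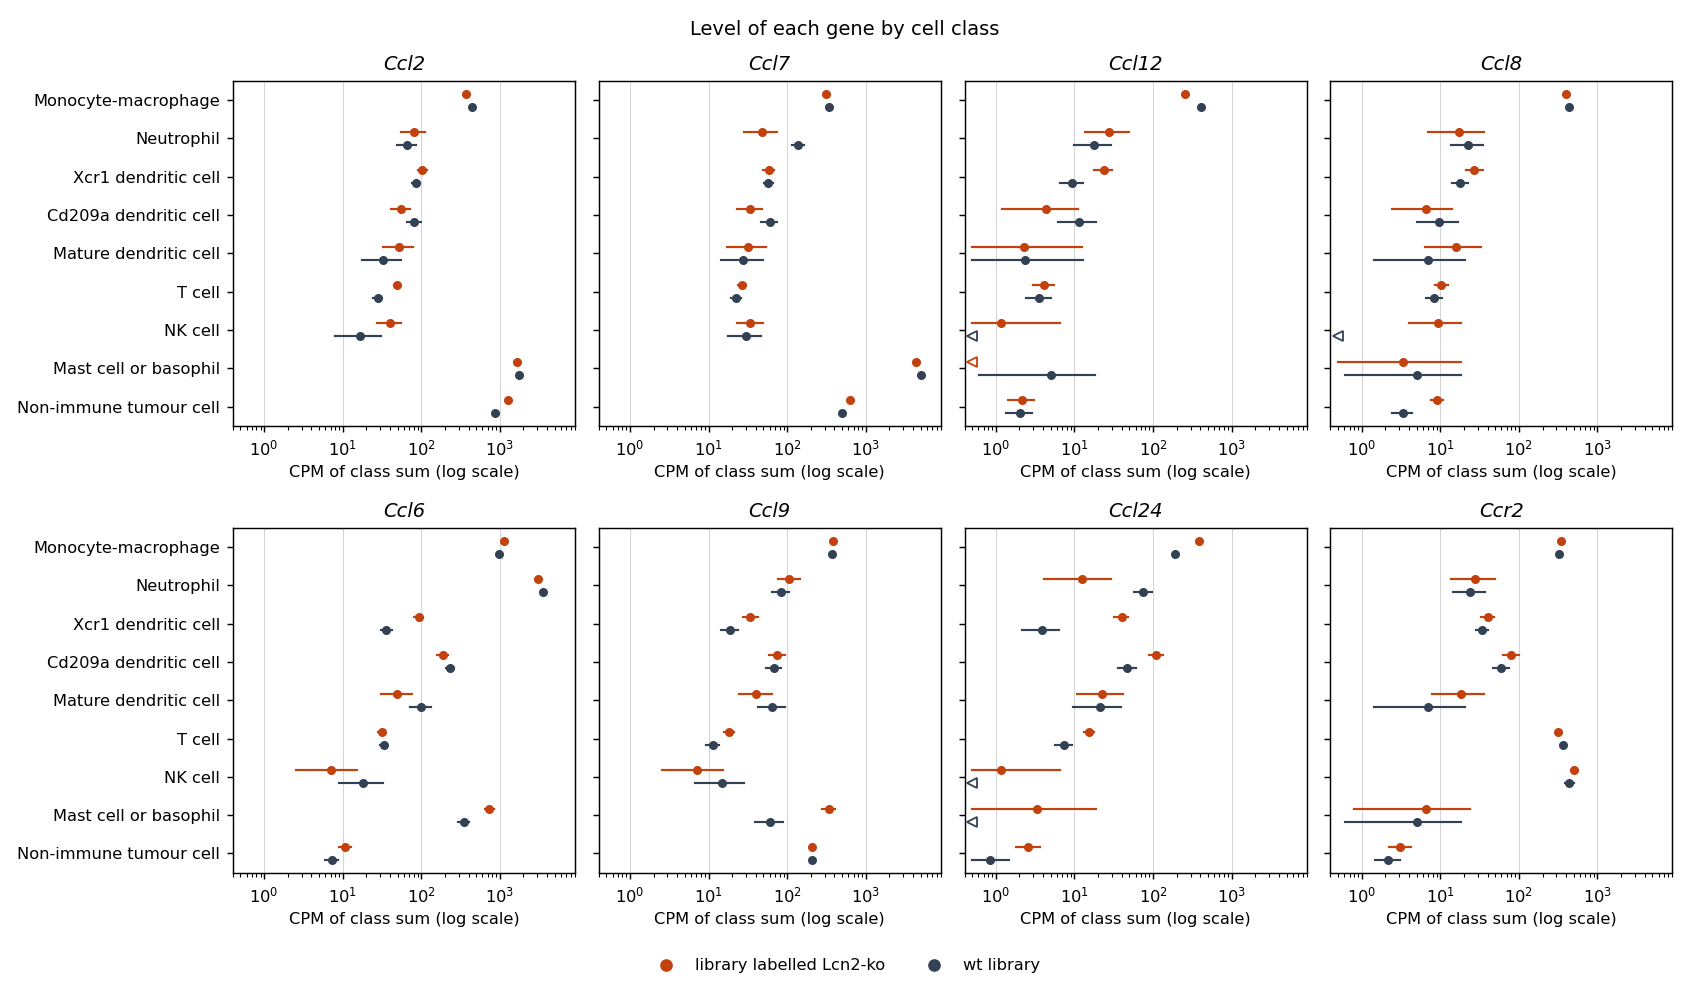
CPM of each gene (log axis) in the 9 classes of at least 50 cells, with orange points for the Lcn2-ko-labelled library above dark points for the wt library. Bars are exact 95% Poisson intervals, cut at the axis, and open triangles mark 0 UMIs. Ccl12 and Ccl8 fall to under 30 CPM in every class but monocyte-macrophages, and Ccl7 peaks in mast cells or basophils.

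The cells that could receive Ccl2, Ccl7 and Ccl12 through Ccr2 were mainly T cells, NK cells and monocyte-macrophages. NK cells had 508 CPM in the Lcn2-ko-labelled library (95% interval 461 to 558) and 439.5 CPM in the wt library (388 to 496), monocyte-macrophages 342 CPM in the Lcn2-ko-labelled library (95% interval 324 to 359.9) and 324 CPM in the wt library (306 to 343) and T cells 315 CPM in the Lcn2-ko-labelled library (95% interval 305 to 326) and 368 CPM in the wt library (356 to 381). NK cells were thus highest in both libraries, and T cells and monocyte-macrophages changed places between the libraries. Among T cells, those with a UMI of Foxp3, the master factor of regulatory T cells, had 662 CPM in the Lcn2-ko-labelled library (95% interval 636 to 689.6) and 708 CPM in the wt library (679.5 to 738). They held 37.9% and 40.8% of all Ccr2 UMIs of their libraries, more than all monocyte-macrophages, at 23.3% and 20.4%. Cd4 T cells without Foxp3 had 205 and 222 CPM and Cd8 T cells 109 and 138 CPM. A Ccr2 UMI remained after thinning in 37.2% and 39.9% of Foxp3 T cells, 29.2% and 24.6% of NK cells, 24.0% and 25.2% of monocyte-macrophages and 9.61% and 10.4% of Cd8 T cells. Non-immune cells, which should lack Ccr2, gave 0.219% and 0.264% in the same measure and 2.59% and 1.87% unthinned. Cd209a dendritic cells, at 5.81% and 3.83%, lay above that level, and Ccr2 of neutrophils, at 27.4 and 23.8 CPM, rested on 11 and 20 UMIs.

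**Figure D3:**
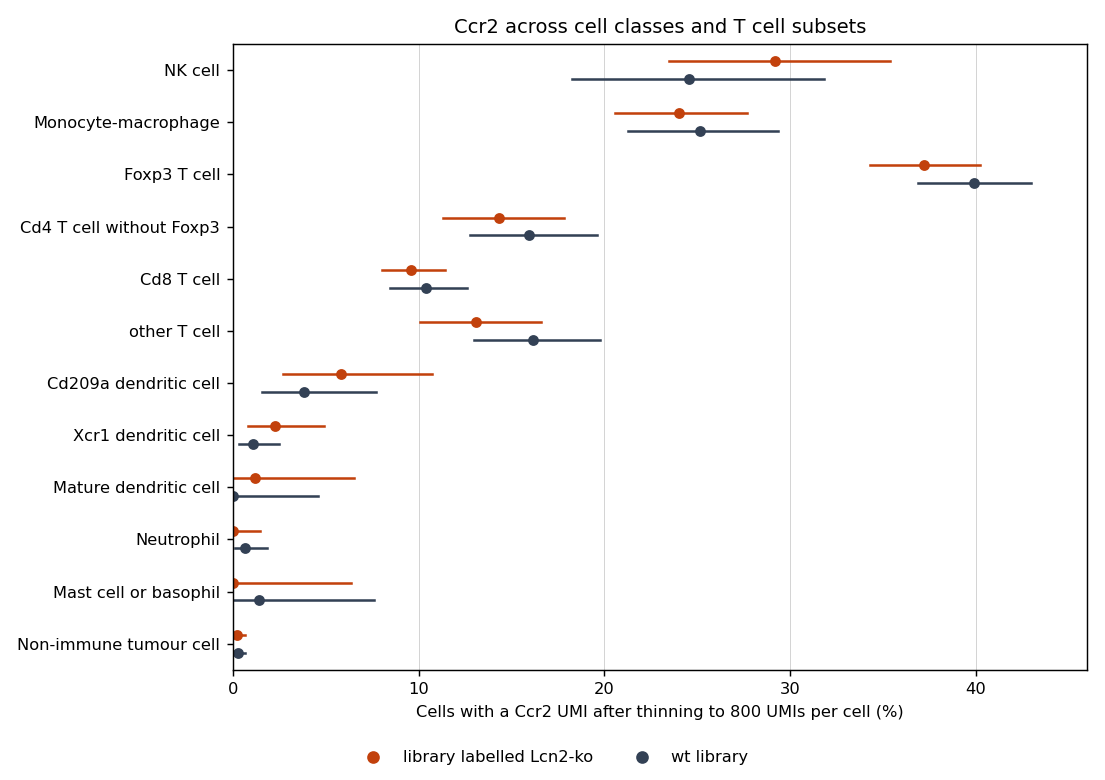
Share of cells with a Ccr2 UMI (%) after thinning each cell to 800 UMIs, by class and T cell subset, for the Lcn2-ko-labelled library (orange, upper) and the wt library (dark, lower). Bars are exact 95% binomial intervals. Foxp3 T cells lie highest, at 37.2% and 39.9%, and non-immune cells lowest among the larger classes, at 0.219% and 0.264%.

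Other receptors of the ligands had their own distribution. Ccr1, the receptor of Ccl6 and Ccl9, was at 1900.1 and 1909.9 CPM in neutrophils and 366 and 391 CPM in monocyte-macrophages, in the Lcn2-ko-labelled library and the wt library. Ccr8 reached 20.5 and 24.0 CPM in T cells. Ccr3, the receptor of Ccl24, was under 20 CPM in each of the 9 classes, and Ackr2 had no UMI in monocyte-macrophages, T cells, NK cells, neutrophils and mast cells or basophils. Ackr1 had 17 UMIs (56.6 CPM) in mast cells or basophils of the Lcn2-ko-labelled library and 11 UMIs (27.7 CPM) in those of the wt library. By UMIs the most abundant gene of the receptor list in monocyte-macrophages was Ccrl2, a receptor relative that does not signal, at 982 and 1081 CPM.

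Within the monocyte-macrophage class, cells were divided by UMIs of C1qa, C1qb or C1qc, complement genes of mature macrophages, of Mrc1, the mannose receptor, and of Ly6c2, a monocyte gene. There were 286 and 270 cells with C1q and Mrc1, 123 and 75 with C1q and no Mrc1, and 125 and 77 with Ly6c2 and no C1q. Their median depths were 9902 and 9371, 4608 and 4838, and 3624 and 3295 UMIs, and a deeper cell is more likely to show a UMI of Mrc1 or C1q. Ccl8 separated these states most, with 576 CPM in the Lcn2-ko-labelled library (95% interval 549 to 605) and 535 CPM in the wt library (508 to 563) in C1q cells with Mrc1. Ly6c2 cells held 3 and 2 Ccl8 UMIs, or 6.08 and 7.06 CPM. Ccl12 was at 337 and 505 CPM in C1q cells with Mrc1 and 79.0 and 10.6 CPM in Ly6c2 cells, where 27 of the 39 UMIs of the Lcn2-ko-labelled library came from 1 cell. Ccl7 followed the same direction, at 408 and 415 CPM and 97.3 and 134 CPM.

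Ccl9, Ccl6 and Ccr2 were higher in Ly6c2 cells than in C1q cells with Mrc1. Ccl9 was at 333 and 337 CPM in C1q cells with Mrc1 and 711 and 738 CPM in Ly6c2 cells. For Ccl6 the values were 1109.9 and 947 CPM and 1591 and 1451 CPM, and for Ccr2 298 and 285 CPM and 519 and 576 CPM. C1q cells without Mrc1 had Ccl9 at 268 and 322 CPM, Ccl6 at 855 and 866 CPM and Ccr2 at 340 and 395 CPM. Ccl9 and Ccl6 were thus no higher there than in C1q cells with Mrc1. The intervals of C1q cells with Mrc1 and Ly6c2 cells did not overlap for these 3 genes in either library. The share of all genes that separate these states was not computed, so this is a description only. Ccl2 showed no common direction, at 408 and 490.3 CPM in C1q cells with Mrc1 and 419.5 and 364 CPM in Ly6c2 cells. Ccl24 was higher in C1q cells with Mrc1, at 468 and 199 CPM, than in Ly6c2 cells, at 158 and 56.5 CPM. It was also high, at 506 and 554 CPM, in the 49 and 45 cells with neither C1q nor Ly6c2, of whose 87 and 72 UMIs 55 and 21 came from 1 cell.

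**Figure D4:**
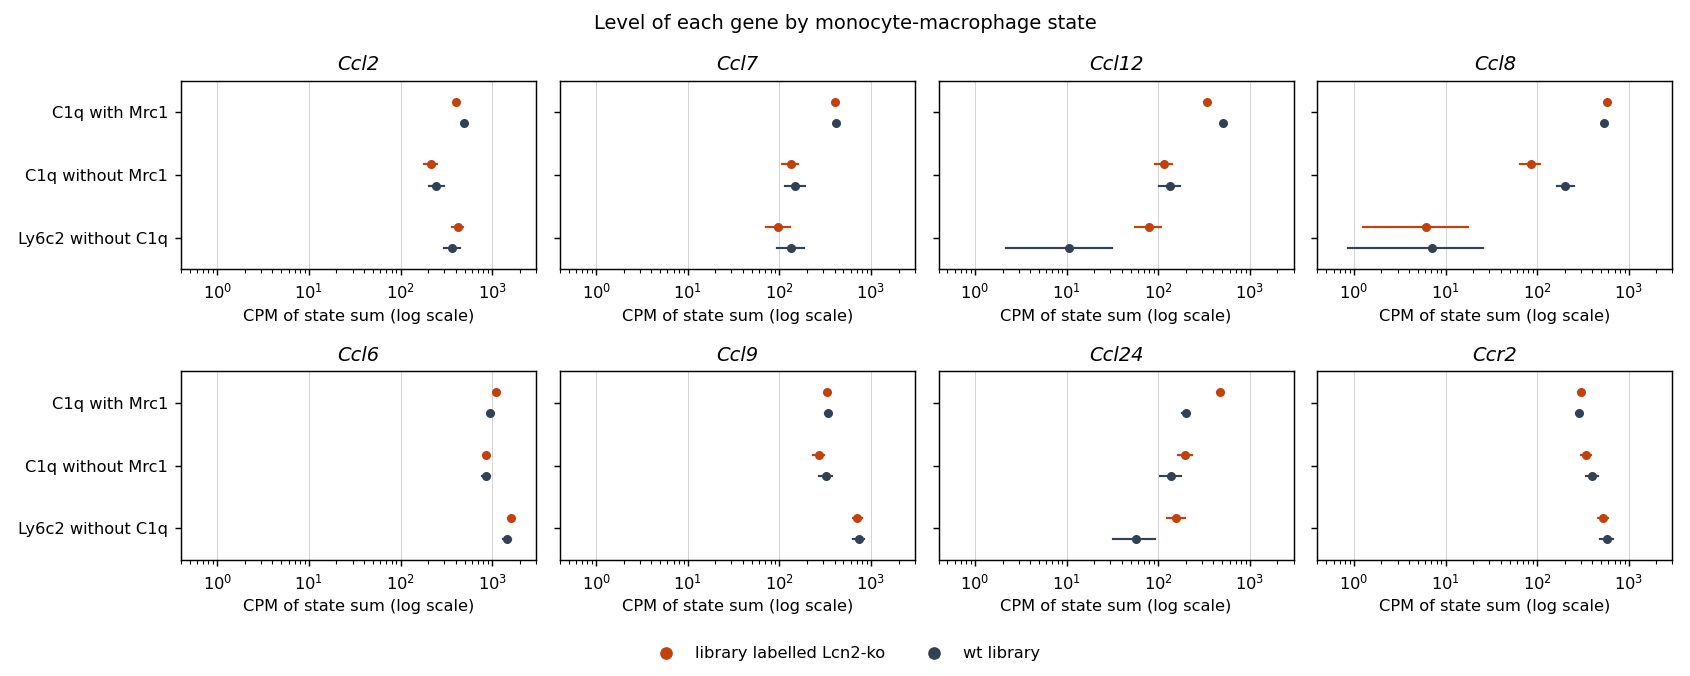
CPM of each gene (log axis) in 3 monocyte-macrophage states for the Lcn2-ko-labelled library (orange, upper) and the wt library (dark, lower), with exact 95% Poisson intervals. Ccl8, Ccl12 and Ccl7 fall from the top state to the bottom one in both libraries, while Ccl9, Ccl6 and Ccr2 are highest in Ly6c2 cells.

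In single C1q cells with Mrc1, each thinned to 3000 UMIs, the second gene of a neighbouring pair was more frequent in cells with the first gene than in cells without it. Ccl7 was in 47.6% of the 124 cells with Ccl2 and 27.4% of the 146 without it in the Lcn2-ko-labelled library, and 59.5% of 126 and 29.4% of 136 in the wt library. Ccl12 was in 43.3% of the 90 cells with Ccl8 and 25.0% of the 180 without it in the Lcn2-ko-labelled library, and 57.5% of 113 and 34.2% of 149 in the wt library. Ccl9 was in 55.8% of the 165 cells with Ccl6 and 28.6% of the 105 without it in the Lcn2-ko-labelled library, and 52.0% of 173 and 28.1% of 89 in the wt library. Some pairs that are not neighbours did the same, given for the Lcn2-ko-labelled library first. Ccl12 was in 38.7% and 52.4% of cells with Ccl2, against 24.7% and 36.8% of those without it. Ccr2, on another chromosome, was in 52.5% and 46.1% of cells with Ccl9, against 39.9% and 32.7% of those without it. Ccr2 and Ccl8 went in opposite directions, with Ccr2 in 33.3% of the 90 cells with Ccl8 and 51.7% of the 180 without it in the Lcn2-ko-labelled library, and 23.0% of 113 and 50.3% of 149 in the wt library. For Ccl24 and Ccl8 the shares were close, with Ccl8 in 32.1% of the 109 cells with Ccl24 and 34.2% of the 161 without it in the Lcn2-ko-labelled library, and 44.8% of 58 and 42.6% of 204 in the wt library. The cells of 1 library share its free RNA and are not replicates, so these shares carry no test.

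Likeness was also read across 18 points, the 9 classes in each library, as Pearson's r of log2(CPM + 1) among 5691 genes. Points of the same class in both libraries share cell type, and points of 1 library share its preparation, so r is a description. Ccl2 was most like Fblim1 (0.96), a filamin-binding adhesion gene, Ccl7 (0.95), Pmp22 (0.94), Vat1 (0.94) and Slc27a1 (0.92). Ccl7 was most like Ccl2, Fblim1 (0.95), Pmp22 (0.93), Lamtor3 (0.93) and Sec14l1 (0.92). Ccl12 was most like Pf4 (0.95), Lyz2 (0.95), Arg1 (0.94), C1qc (0.94) and Clec4a3 (0.93), and Ccl8 was most like Ccl12 (0.93), Ms4a7 (0.90), Lyz2 (0.90), C1qc (0.90) and Msr1 (0.89). For Ccl24 the genes were Cybb (0.93), a subunit of the phagocyte oxidase, Ms4a6d (0.90), Csf1r (0.89), Dab2 (0.89) and Ly86 (0.89). For Ccl6 they were Ccrl2 (0.97), Osm (0.96), Ccl3 (0.95), Cyp4f18 (0.94) and Pde7b (0.93). Ccl9 had lower values, with Pla2g4a (0.87), Lamp2 (0.86), Rab1a (0.85), Cltc (0.85) and Plau (0.85). Ccr2 was most like Dok2 (0.96), Pmepa1 (0.95), Ighm (0.93), Cd2 (0.91) and Ms4a6b (0.90), several of them lymphocyte genes.

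Set side by side within monocyte-macrophages, the libraries differed most in Ccl24 and Ccl12 among the 8 genes. Ccl24 had 1620 UMIs in the Lcn2-ko-labelled library and 687 UMIs in the wt library, a log2 ratio of Lcn2-ko over wt of 1.00 (0.87 to 1.13). Just past the limit, it was 1 of the 8 members, all measured, past 2-fold upward in the Lcn2-ko-labelled library, beside 0.0672% of 5953 genes tested, and no member was past 2-fold downward, beside 0.403% of genes. Ccl12 had 1071 UMIs in the Lcn2-ko-labelled library and 1435 UMIs in the wt library, a log2 ratio of -0.66 (-0.77 to -0.54). Ccl2 was at -0.24 (-0.34 to -0.14), Ccl7 at -0.15 (-0.26 to -0.04), Ccl8 at -0.11 (-0.21 to -0.01), Ccl6 at 0.23 (0.16 to 0.29), Ccl9 at 0.02 (-0.08 to 0.13) and Ccr2 at 0.08 (-0.04 to 0.19). The median of the 8 was -0.04, beside -0.01 over all genes tested.

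A Ccl24 UMI was found in 36.0% and 24.0% of monocyte-macrophages and in 14.5% and 9.03% after thinning. The log2 ratio of Ccl24 was 1.24 (1.09 to 1.38) in C1q cells with Mrc1, 0.52 (0.08 to 0.98) in C1q cells without Mrc1 and 1.48 (0.70 to 2.36) in Ly6c2 cells. Ccl24 was thus higher in the Lcn2-ko-labelled library in these 3 states, and in the cells with neither gene the ratio was -0.13 (-0.60 to 0.34). Of all genes tested, 0.265% were past 2-fold upward and 0.613% downward in the first state, 3.61% and 4.7% in the second, and 6.7% and 7.96% in Ly6c2 cells. Most cells of the class fell in a larger cluster, with 356 and 309 of them, and a smaller one, with 216 and 142. They are called the C1q cluster and the monocyte cluster here. These names are shorthand, and the smaller cluster also held cells with C1q. Within clusters the ratio was 1.11 (0.96 to 1.25) in the C1q cluster and 0.51 (0.21 to 0.83) in the monocyte cluster. Leaving out the 5 cells with the most Ccl24 in each library, an alternative chosen after the data were seen, gave 1.06. T cells, a background for free RNA, had Ccl24 at 15.3 and 7.31 CPM, a ratio of 1.07 (0.65 to 1.50), with a UMI in 0.408% and 0.174% of thinned cells, and the part of this in the ratio of monocyte-macrophages was not tested. The 2-fold limit was missed when cells were named by cluster (0.85), averaged cell by cell (0.84) or thinned (0.82).

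The lower Ccl12 of the Lcn2-ko-labelled library was seen in C1q cells with Mrc1, at -0.58 (-0.71 to -0.46), and in the C1q cluster, at -0.60 (-0.72 to -0.49). C1q cells without Mrc1 were at -0.23 (-0.73 to 0.27). Ly6c2 cells went the other way, at 2.90 (1.25 to 5.24) from 39 and 3 UMIs, most of the 39 from 1 cell. They were past 2-fold upward like 6.7% of genes in that state. Ccl12 was at 79.0 CPM in Ly6c2 cells of the Lcn2-ko-labelled library and 10.6 CPM in those of the wt library. It was thus measured there through the Lcn2-ko-labelled library alone. The class ratio of Ccl12 was -0.14 when each cell was thinned to 800 UMIs, and the monocyte cluster, with 22 and 8 UMIs, was at 0.79 (-0.43 to 2.17). Ccl2 differed in direction between the clusters, at -0.34 (-0.45 to -0.23) in the C1q cluster and 0.58 (0.28 to 0.89) in the monocyte cluster, and its class ratio was 0.03 when averaged cell by cell. Ccl8 of C1q cells without Mrc1 was at -1.26 (-1.75 to -0.78), past 2-fold downward like 4.7% of genes, and 49 of the 89 wt UMIs came from 1 cell. In C1q cells with Mrc1 the Ccl8 ratio had the other sign, at 0.11 (0.004 to 0.21). Those cells held 1616 of the 1685 Ccl8 UMIs of the class in the Lcn2-ko-labelled library and 1453 of 1545 in the wt library. Neutrophil markers summed to 693 CPM in monocyte-macrophages of the Lcn2-ko-labelled library and 1344 CPM in those of the wt library, with medians over cells of 106 and 250.2 CPM, and the part of this in the ratios was not tested. Of the class, 51 and 53 cells lay just inside the limit on the lead of the top score and 50 and 62 just outside it.

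Non-immune cells had more Ccl2 in the Lcn2-ko-labelled library, with 16673 UMIs in the Lcn2-ko-labelled library and 12586 UMIs in the wt library and a log2 ratio of 0.54 (0.50 to 0.57). Ccl7 was at 0.37 (0.32 to 0.41) and Ccl9 at 0.03 (-0.04 to 0.11), and these 3 were the members measured there. None reached 2-fold, and of 6722 genes 0.104% did so upward and 0.0744% downward. In the 5 clusters that held most of this class (another, with 14 and 10 of its cells, was not compared) Ccl2 was higher in the Lcn2-ko-labelled library, from 0.15 (0.01 to 0.29) in cluster 13 to 0.98 (0.69 to 1.28) in cluster 23. The interval of cluster 14 reached below 0, at 0.32 (-0.10 to 0.73). Ccl7 was not uniform, at 0.31 (0.24 to 0.37) in cluster 1, 0.57 (0.50 to 0.65) in cluster 3, -0.42 (-0.58 to -0.26) in cluster 13, 0.23 (-0.30 to 0.75) in cluster 14 and 2.01 (1.05 to 3.06) in cluster 23, the last from 34 and 13 UMIs. Ccl9 also differed in direction, at -0.38 (-0.54 to -0.22) in cluster 1 and 0.26 (0.16 to 0.36) in cluster 3. It was at -0.24 (-0.52 to 0.04) in cluster 13, 0.23 (-0.30 to 0.75) in cluster 14 and 0.27 (-0.05 to 0.58) in cluster 23. Ccl2 in T cells, the background class, showed a log2 ratio of 0.81 (0.59 to 1.03), in the same direction as in non-immune cells.

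Mast cells or basophils had Ccl2 at a log2 ratio of -0.10 (-0.26 to 0.07) and Ccl7 at -0.20 (-0.30 to -0.10). Ccl6, at 1.08 (0.76 to 1.40), and Ccl9, at 2.48 (1.83 to 3.19), were past 2-fold upward, 2 of 4 measured members, beside 6.16% of 6120 genes, with no member and 8.14% of genes downward. Cells with Mcpt8 were 12 of 56 in the Lcn2-ko-labelled library and 8 of 71 in the wt library, and within them Ccl6 was at 0.04 (-0.32 to 0.40) and Ccl9 at 1.51 (0.75 to 2.34). In the cells without Mcpt8, Ccl6 was at 1.68 (0.97 to 2.42) from 55 and 25 UMIs and Ccl9 at 2.76 (1.47 to 4.33) from 28 and 6 UMIs. In neutrophils Ccl6 was at -0.19 (-0.29 to -0.10). Ccl7, at -1.55 (-2.33 to -0.84), and Ccl24, at -2.59 (-4.26 to -1.29), were past 2-fold downward, 2 of 8 measured members, beside 3.77% of 4566 genes, with no member and 4.86% of genes upward. Ccl24 was at 12.5 CPM in neutrophils of the Lcn2-ko-labelled library and 75.1 CPM in those of the wt library. It was thus measured there through the wt library alone. In the wt library 1 neutrophil held 78 of the 116 Ccl7 UMIs, and 1 held 30 of the 63 Ccl24 UMIs. Within the neutrophil cluster, which held 281 and 502 of these cells, Ccl7 was at -0.39 (-1.60 to 0.71) from 10 and 27 UMIs and Ccl24 at -1.95 (-7.42 to 0.95) from 1 and 8 UMIs, so that both intervals held 0. Of the other wt cells of the class, 12 fell in the C1q cluster.

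**Figure D5:**
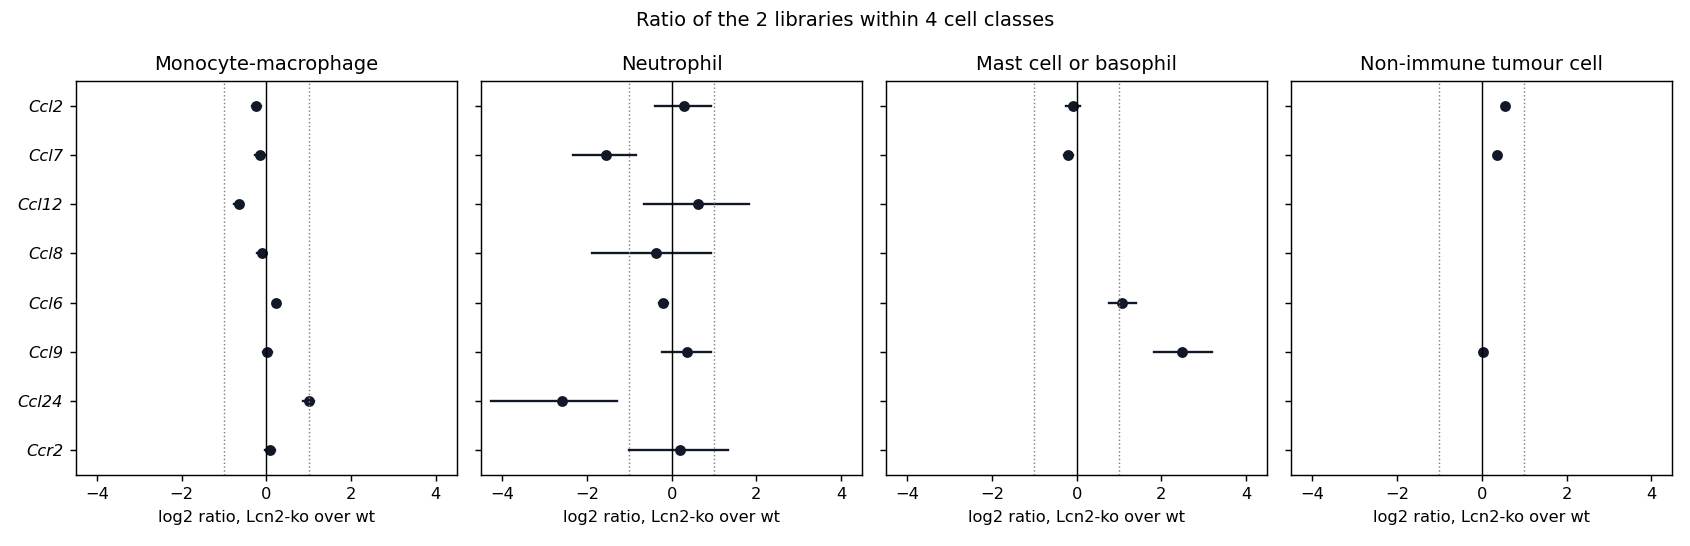
log2 ratio of the Lcn2-ko-labelled library over the wt library for each measured gene (at least 20 CPM in either library) in 4 classes, with exact 95% intervals for counting error. Dotted lines mark 2-fold. Ccl24 reaches the 2-fold line in monocyte-macrophages, Ccl2 and Ccl7 lie above 0 in non-immune cells, and Ccl6 and Ccl9 lie above 1 in mast cells or basophils.

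Ccr2 was at a log2 ratio of -0.23 (-0.29 to -0.16) in T cells and 0.21 (-0.02 to 0.43) in NK cells. Among T cells it was at -0.10 (-0.18 to -0.01) in Foxp3 T cells and -0.33 (-0.53 to -0.14) in Cd8 T cells. Cd4 T cells without Foxp3 were at -0.11 (-0.35 to 0.13) and the other T cells at -0.18 (-0.43 to 0.06). Foxp3 T cells were 1059 of 3189 T cells in the Lcn2-ko-labelled library and 1037 of 2892 in the wt library. The part of this in the class ratio was not tested. None of the 4 members measured in T cells reached 2-fold upward, beside 0.0475% of 6313 genes, or downward, beside 0.0475%. In NK cells 1 of 3 measured members did so upward, Ccl2 with 34 and 10 UMIs at 1.27 (0.22 to 2.45), beside 1.84% of 6293 genes, and none downward, beside 2.54%. Ccl2 was at 39.9 CPM in NK cells of the Lcn2-ko-labelled library and 16.5 CPM in those of the wt library. It was thus measured there through the Lcn2-ko-labelled library alone. Its log2 ratio in NK cells turned to -1.26 when cells were thinned to 800 UMIs. In Xcr1 dendritic cells 3 of 8 measured members were past 2-fold upward, beside 0.325% of 5854 genes, and none downward, beside 0.307%. They were Ccl24 at 3.35 (2.56 to 4.25), Ccl6 at 1.37 (1.06 to 1.68) and Ccl12 at 1.34 (0.71 to 1.98). In the Lcn2-ko-labelled library and the wt library, Ccl24 was at 39.8 and 3.89 CPM and Ccl12 at 23.6 and 9.33 CPM. Both were thus measured through the Lcn2-ko-labelled library alone. Beside this, 9.89% of these cells in the Lcn2-ko-labelled library and 5.32% in the wt library fell in the C1q cluster. Of the 98 Ccl24 UMIs of the Lcn2-ko-labelled library, 47 were in 1 cell. With cells named by cluster Ccl12 turned to -1.43 and Ccl6 was at 0.13 there, and without the top cell of each library Ccl12 was at 0.65. Cd209a dendritic cells had 1 of 6, Ccl24 at 1.21 (0.73 to 1.70), upward, beside 1.38% of genes, and none downward, beside 1.46%. Mature dendritic cells had 1 of 5 downward, Ccl6 at -1.005 (-1.82 to -0.23) from 22 and 43 UMIs, beside 6.67% of genes, and none upward, beside 5.24%. That ratio turned to 0.10 with doublets kept.

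Genes around these chemokines, from lists chosen with earlier results of these data known, were also set side by side in monocyte-macrophages. Of 12 other CC ligands 5 were measured, none past 2-fold upward, beside 0.0672% of all genes, and 1 downward, beside 0.403%. The lower one was Ccl22, a dendritic cell ligand of Ccr4, at 14.5 and 56.1 CPM and -1.95 (-2.39 to -1.53). Ccl22 was measured through the wt library alone. The most abundant, Ccl4, was at 1899 and 3171 CPM and -0.74 (-0.78 to -0.70), and the median of the 5 was -0.71, beside -0.01 over all genes. All 10 signalling genes below Ccr2 lay within 2-fold, with a median of -0.05, and Gnb1, a G protein subunit, was the most abundant at 611 and 571 CPM. The 14 measured of 19 inducers and regulators lay within 2-fold too, with a median of 0.04, and Il1b was at 7687 and 6130.0 CPM. So did the 9 measured of 12 genes of alternative activation, with a median of -0.12. Their most abundant gene, Selenop, a selenium transport protein, was at 1514 and 1875 CPM, and the 4 measured receptors had a median of -0.01.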

How the data were processed

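Live CD45+ cells of 2 libraries, 1 per label, were measured on BD Rhapsody. The deposited counts are UMI counts per gene and barcode, not normalized by the authors, and Cell Ranger and mm10 are named, per the submitters' processing notes. Other settings are not given in the sources used here. Barcodes with under 200 genes or over 20% mitochondrial UMIs were left out, as was the top 4% of Scrublet doublet scores in each library, because the automatic limit marked 1 cell per library. Each cell took the class with the highest mean scaled marker score, with at least 3 markers detected and a lead of 0.1, and non-immune cells also had no Ptprc UMI. These limits were chosen after the data were seen. CPM of class sums carry exact Poisson intervals, shares exact Clopper-Pearson intervals and ratios exact conditional binomial intervals, all at 95%. Genes under 20 CPM in both libraries were not measured in a comparison, and 2-fold was the limit for a difference. A gene could thus be measured through 1 library alone, and the shares over all genes used the same rule. Cells were thinned to 800 UMIs, which left out 4 and 2 monocyte-macrophages, 6 and 13 T cells, 22 and 36 non-immune cells and 44 and 49 neutrophils in the Lcn2-ko-labelled library and the wt library. Thinning for genes found in the same cells was to 3000 UMIs. Clusters came from Leiden clustering (2000 variable genes without Ccl and Ccr genes, 30 components, 15 neighbours, resolution 1), which gave 26.

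All 8 members are named, with the 5 genes most like each among genes with at least 50 CPM, the gene list members past 2-fold in monocyte-macrophages, and the most abundant one of each list. Receptors named in other classes, clusters and single cells were chosen after their values were seen. The members and lists were chosen with earlier results of these data known. Scripts were tested on simulated data. Alternatives were other gates, clusters, filters, scalings, thinning and leaving out top cells, and 2 of them, cluster weights as in wt and the top 5 cells left out, were chosen after seeing the data. Positions are from GENCODE M21 (GRCm38) and promoters from RefSeq (GRCm38.p6). Tools were Python 3.11.15, numpy 2.4.6, scipy 1.17.1, pandas 2.3.3, scanpy 1.11.5, leidenalg 0.10.2, igraph 0.11.9 and matplotlib 3.10.9. Some items of the gene and motif lists are not reported here.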

Additional observations from a re-analysis of the deposited data

Results flagged for a closer look

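Log2 ratios of the Lcn2-ko-labelled library over the wt library pointed in opposite directions between classes for 6 ligands, with counting intervals on opposite sides of 0, and the difference between the classes was not tested. Ccl2 was at 1.27 in NK cells and -0.55 in Cd209a dendritic cells, and these turned to -1.26 with cells thinned and to 0.38 with cells named by cluster. Ccl7 was at 0.37 in non-immune cells and -1.55 in neutrophils, where 1 wt cell held 78 of 116 UMIs and the neutrophil cluster alone gave -0.39 (-1.60 to 0.71). Ccl12 was at 1.34 in Xcr1 dendritic cells and -0.66 in monocyte-macrophages, and Ccl8 at 0.60 and -0.11 in the same classes. With cells named by cluster, Ccl12 in Xcr1 dendritic cells was at -1.43 and Ccl8 in monocyte-macrophages at 0.011, so neither contrast of direction held. Ccl6 was at 1.37 in Xcr1 dendritic cells and -1.005 in mature dendritic cells, which turned to 0.10 with doublets kept. Ccl24 was at 3.35 in Xcr1 dendritic cells, where 1 cell of the Lcn2-ko-labelled library held 47 of 98 UMIs, and -2.59 in neutrophils, whose own cluster gave -1.95 (-7.42 to 0.95) from 1 and 8 UMIs.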

How the results depend on the processing

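No paired analysis was possible because there was 1 library per label. Of the ratios, levels and shares that answer a comparison, 179 values under an alternative stayed within the counting interval, 47 moved beyond it and 4 changed sign. Of the other values 330 stayed, 91 moved and 8 changed sign, and the causes were not tested. With cells named by cluster, log2 ratios in monocyte-macrophages were -0.051 for Ccl2, -0.53 for Ccl12, 0.011 for Ccl8, a change of sign, and 0.85 for Ccl24. Xcr1 dendritic cells turned to -1.43 for Ccl12 and -0.91 for Ccl9, and Cd209a dendritic cells to 0.38 for Ccl2, 0.56 for Ccl7 and 0.39 for Ccl6, while Ccl7 in non-immune cells was 0.32. The same naming put 83.9% and 79.6% of Ccl2, 73.3% and 65.8% of Ccl7 and 51.2% and 55.3% of Ccl9 UMIs in non-immune cells, in the Lcn2-ko-labelled library and the wt library. Monocyte-macrophages then held 93.1% and 93.8% of Ccl12, 86.2% and 90.9% of Ccl8, 70.6% and 56.4% of Ccl6 and 92.0% and 93.4% of Ccl24, and neutrophils 16.6% and 35.0% of Ccl6. As a mean over cells, ratios in monocyte-macrophages were 0.028 for Ccl2 and 0.044 for Ccl7, both changes of sign, and 0.84 for Ccl24, with -0.39 for Ccl7 in mast cells or basophils and 0.59 for Ccl2 in non-immune cells. Thinned to 800 UMIs, monocyte-macrophages gave 0.025 for Ccl2, a change of sign, -0.14 for Ccl12 and 0.82 for Ccl24. Thinning also gave 0.92 for Ccl7 in Cd209a dendritic cells and -1.26 for Ccl2 in NK cells, both changes of sign. It gave -0.57 for Ccl2 and -0.66 for Ccl7 in mast cells or basophils, and 0.62 and 0.52 for the same genes in non-immune cells. With doublets kept, Ccl6 in mature dendritic cells turned to 0.10. Non-immune cells then held 70.7% and 67.7% of Ccl2, 62.0% and 55.8% of Ccl7 and 44.6% and 49.2% of Ccl9 UMIs. Monocyte-macrophages held 74.7% of Ccl12 and 59.8% of Ccl24 in the Lcn2-ko-labelled library, 70.6% and 70.4% of Ccl8 and 49.5% and 35.2% of Ccl6, and neutrophils 12.7% and 29.6% of Ccl6. With 4 markers asked for, neutrophils held 12.3% and 29.6% of Ccl6 and T cells 51.9% and 55.0% of Ccr2. With clusters weighted as in wt, chosen after seeing the data, ratios were 1.01 for Ccl24 and -0.59 for Ccl12 in monocyte-macrophages. Having 1 library per label limits every ratio, and classes with few cells rest on few UMIs.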
